A study of Homo sapiens with 21 samples.

Results

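Collagens are the main structural proteins of the extracellular matrix, and the genes described here encode their chains. A gene was included when its identifier in the count files mapped to a protein-coding gene whose symbol has the form COL, a number, A and a number, which gave 44 of 53515 genes. They comprised 11 fibrillar chains, 6 basement membrane chains, 10 FACIT chains (fibril-associated collagens that sit on the surface of fibrils) and 17 other chains. Each collagen molecule is built from chains that wind around each other into a helix, so that partner chains are needed together for a given molecule. Fibrillar collagens form the cable-like fibrils of connective tissue, whereas type IV collagen forms the sheet-like network of the basement membrane on which epithelial cells rest. Carcinoma cells usually make basement membrane chains, and abundant fibrillar chains are better known from fibroblasts and from cells that have undergone epithelial-to-mesenchymal transition (EMT).

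RNA sequencing covered 17 human cancer cell lines in 21 libraries, and each resistant cell line was compared with the untreated parental cell line it came from. Resistance was selected in culture by stepwise dose escalation of each drug, and whether any resistant cell line is a clone is not given in the sources used here. From HepG2 (liver) came HepG2S1 and HepG2S3, both resistant to sorafenib, and from PancVB (Panc 03.27, pancreas) came PancB1Q and PancB1V, both resistant to 5-fluorouracil. Among the lung cell lines, HCC4006P1 was paired with the erlotinib-resistant HCC4006ER, HCC4006P2 with the gefitinib-resistant HCC4006GR, and HCC827P with the gefitinib-resistant HCC827GR. Of the ovarian cell lines, UWB1.289 was compared with U10 and U100, which resist olaparib, and IGROV-1 with IGROV-1/CDDP, which resists cisplatin. Only 4 cell lines (HepG2 with HepG2S3, and HCC4006P1 with HCC4006ER) were sequenced in 2 libraries, against 1 library for 13 cell lines, and changes in 8 of the 10 pairs have no full replicate check. Of the 10 pairs, 6 share a parental profile with another pair and are therefore not independent. HCC4006P1 and HCC4006P2 carry the same cell line identifier in the study, so their 2 pairs are not fully independent either.

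Libraries held between 9851195 and 36639473 counts on genes, and 3 counts, taken as the smallest detected number, equalled between 0.0819 and 0.305 CPM (counts scaled by the total of the library). In HCC4006P1 replicate 1, counts stop on chromosome 7 and are missing for the rest of that chromosome and for chromosomes 8, 9 and X, where 9 of the 44 chain genes lie (COL1A2, COL4A5, COL4A6, COL5A1, COL14A1, COL15A1, COL22A1, COL26A1 and COL27A1). Their HCC4006P1 levels come from replicate 2 alone, and they have no test in that pair. Several libraries went against the tissue on their label. The 7 hepatocyte markers summed to 38410 CPM in HepG2, but to 1.12 CPM in HepG2S1 and 32.3 CPM in HepG2S3, and 5 of them, albumin (ALB) included, had no count in HepG2S1. At the same time the 9 fibroblast markers summed to 8.45 CPM in HepG2, 555 CPM in HepG2S1 and 402 CPM in HepG2S3. DCN (decorin, a proteoglycan that binds collagen fibrils) gave 399 CPM in HepG2S1 and 345 CPM in HepG2S3. PDGFRB gave 8.09 CPM of the sum in HepG2 and went the other way, to 2.03 CPM in HepG2S1 and 6.88 CPM in HepG2S3. Of 4 markers measured, 3 were at least 2-fold higher and 1 lower in HepG2S1 (all genes 25.5% and 18.4%). In HepG2S3 it was 3 higher and 0 lower (all genes 27.3% and 17.7%). PDGFRA, POSTN and DPT did not exceed 0.406 CPM in these cell lines. The 6 lung adenocarcinoma markers summed to 0.429 CPM in HCC4006P1 and 0.612 CPM in HCC4006ER. The sum was 3349 CPM in HCC4006P2, 314 CPM in HCC4006GR, 99.9 CPM in HCC827P and 28.3 CPM in HCC827GR. SLC34A2 alone gave 3083 CPM in HCC4006P2 and 293 CPM in HCC4006GR. This gene was also at 115 to 638 CPM in the ovarian cell lines, so a high sum does not by itself identify lung. The 5 pancreatic duct markers summed to 772 CPM in PancVB, 276 CPM in PancB1Q and 234 CPM in PancB1V. Most of it came from KRT19 and SOX9, while PDX1 did not exceed 0.201 CPM in these cell lines. The same sum was 1680 CPM in HCC4006P1, a lung cell line, so it does not by itself identify pancreas. PAX8, a marker of ovarian carcinoma, was at 357 to 664 CPM in the 5 ovarian cell lines, where WT1 did not exceed 0.488 CPM. Fibroblast markers also went from 0.863 to 167 CPM in HCC4006ER and from 3.70 to 171 CPM in U10, where THY1 made up 165 CPM. The 4 epithelial markers (EPCAM, CDH1, KRT8 and KRT18) summed to less in the resistant than in the parental cell line in each of the 10 pairs. CDH1 itself was slightly higher in PancB1Q (3.12 against 2.12 CPM) and HCC4006GR (499 against 482 CPM). It was also higher in U10 (33.8 CPM) and U100 (42.0 CPM) than in UWB1.289 (28.4 CPM). The sum was 1296 CPM in HepG2S1 and 1080 CPM in HepG2S3 against 2405 CPM in their parental cell line, and went from 4887 to 1719 CPM in HCC4006ER, from 2442 to 672 CPM in HCC827GR and from 298 to 128 CPM in IGROV-1/CDDP. At least 2-fold lower were 4 of the 4 markers in HCC4006ER (all genes 10.1%) and 1 in U10 (all genes 5.11%). In HepG2S1, HepG2S3, HCC827GR and IGROV-1/CDDP it was 3 each (all genes 18.4%, 17.7%, 7.67% and 7.21%). By edgeR, 4 of 4 epithelial markers were called lower in HepG2S3 (all genes tested 32.1%) and in HCC4006ER (23.6%). Of the fibroblast markers tested, 5 of 6 and 5 of 5 were called higher (all genes 31.4% and 22.5%). The part of these differences in the collagen changes was not tested, and counts over all pairs are therefore also given without the HepG2 family and without HCC4006ER. As these are bulk samples, more cells of a type and more RNA per cell cannot be told apart.

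The summed CPM of the 44 chains ranged from 407 in HCC827P to 10280 in HCC4006ER. Parental cell lines lay between 407 and 2954 CPM, with IGROV-1 the highest. The sum was higher in the resistant than in the parental cell line in 9 of the 10 pairs, and IGROV-1/CDDP, at 2016 CPM against 2954 CPM, was the exception. HepG2 (1141 CPM) was surpassed by HepG2S1 (3681 CPM) and HepG2S3 (3609 CPM), and UWB1.289 (1216 CPM) by U10 (4002 CPM) and U100 (2393 CPM). HCC4006GR reached 5042 CPM against 1766 CPM in HCC4006P2. A few chains gave most of these counts. COL5A1 alone gave 5145 of the 10280 CPM in HCC4006ER, and a type IV chain had the highest count of the 44 chains in 8 of the 17 cell lines. FACIT chains gave 1499 CPM in U10 and 1031 CPM in PancB1Q, but 5.60 CPM in HCC827P.

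**Figure D1:**
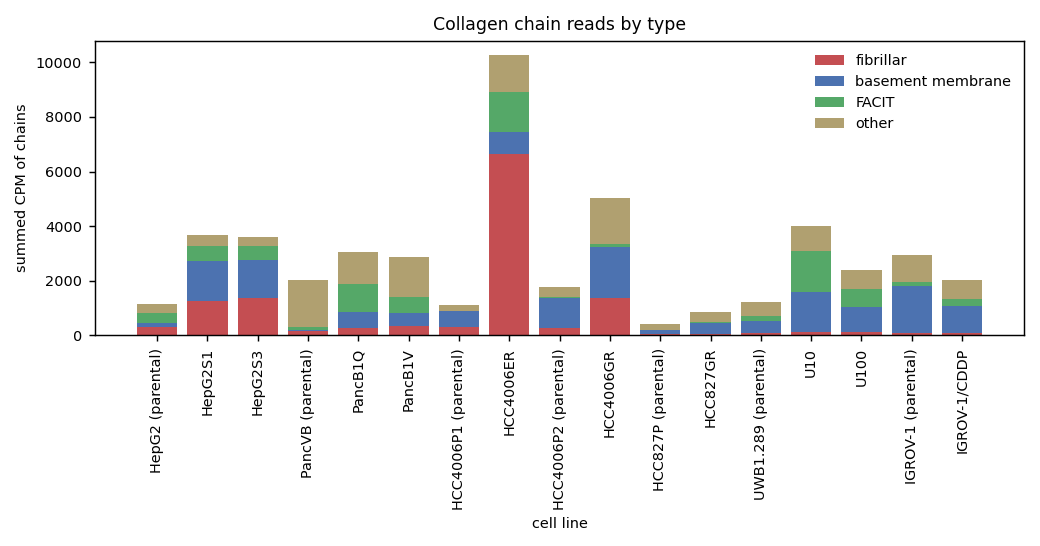
Summed CPM of the collagen chains in each cell line, stacked by type, as the mean of the libraries where a cell line has 2. HCC4006ER stands highest at 10280 CPM, most of it fibrillar, and HCC827P lowest at 407 CPM.

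Basement membrane chains together reached at least 39.4 CPM in each of the 17 cell lines, and COL4A2 was at 1 CPM or more in 16 and COL4A1 in 15 of them. COL4A1 and COL4A2 encode the chains of the type IV collagen found in almost all basement membranes, and lie head to head on chromosome 13. In RefSeq (GRCh38.p14), 126 bases separate their start sites, and this shared stretch at chr13:110307158-110307283 is shown on the strand of COL4A2 because both genes were far higher in HepG2S1, HepG2S3, PancB1Q and PancB1V than in their parental cell lines. Capitals mark a CCAAT box (CCAAT) and a GC box (GGGCGG), counting matches on both strands.

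COL4A1-COL4A2 between starts: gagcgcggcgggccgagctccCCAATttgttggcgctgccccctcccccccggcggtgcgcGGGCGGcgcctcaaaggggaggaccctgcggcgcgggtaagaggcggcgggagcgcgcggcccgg

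A TATA box (TATAAA) was also searched and is not in this stretch. Counting only the 250 bases before each start in RefSeq, 32.0% of all 35116 windows hold CCAAT, 42.6% hold GGGCGG and 10.7% hold TATAAA. For the 32 chain genes with a window, these letters were found in 11, 21 and 7 genes. A gene was counted when any of its windows held the letters. The shares over all are per window, so the 2 sets of numbers cannot be compared directly. The other type IV genes are arranged in the same way, with 418 bases between the starts of COL4A3 and COL4A4 on chromosome 2 and 379 bases between those of COL4A5 and COL4A6 on chromosome X.

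Levels of COL4A1 were 0.0854 CPM in HepG2, 341 CPM in HepG2S1 and 354 CPM in HepG2S3. They were 0.875 CPM in PancVB, 226 CPM in PancB1Q and 193 CPM in PancB1V. These parental cell lines thus had almost no COL4A1 transcript, whereas 5 others already expressed it. In the lung pairs COL4A1 went from 117 to 265 CPM in HCC4006ER, from 277 to 751 CPM in HCC4006GR and from 19.8 to 128 CPM in HCC827GR. In the ovarian pairs it went from 124 CPM in UWB1.289 to 613 CPM in U10 and 335 CPM in U100, but from 733 CPM in IGROV-1 to 505 CPM in IGROV-1/CDDP. COL4A1 was at least 2-fold higher in 9 of 10 pairs, in 7 of 8 without the HepG2 family and in 6 of 7 without HCC4006ER as well. COL4A2 followed, at 0.554 CPM in HepG2 against 682 CPM in HepG2S1 and 658 CPM in HepG2S3, and from 3.87 CPM in PancVB to 332 CPM in PancB1Q and 292 CPM in PancB1V. It was at least 2-fold higher in 6 pairs (4 of 8 without the HepG2 family) and 2-fold lower in IGROV-1/CDDP, where it went from 821 to 360 CPM. Per kilobase of transcript, the level of COL4A1 was 0.208 to 1.38 times that of COL4A2 over the 15 cell lines that had at least 1 CPM of both, with a median of 0.561. On GRCh37 the gene models of COL4A1 (chr13:110801310-110959504, minus strand) and COL4A2 (chr13:110958159-111165556, plus strand) overlap at their 5′ ends. Whether reads were counted by strand is not given in the sources used here, so reads in the overlap cannot be assigned with certainty.

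**Figure D2:**
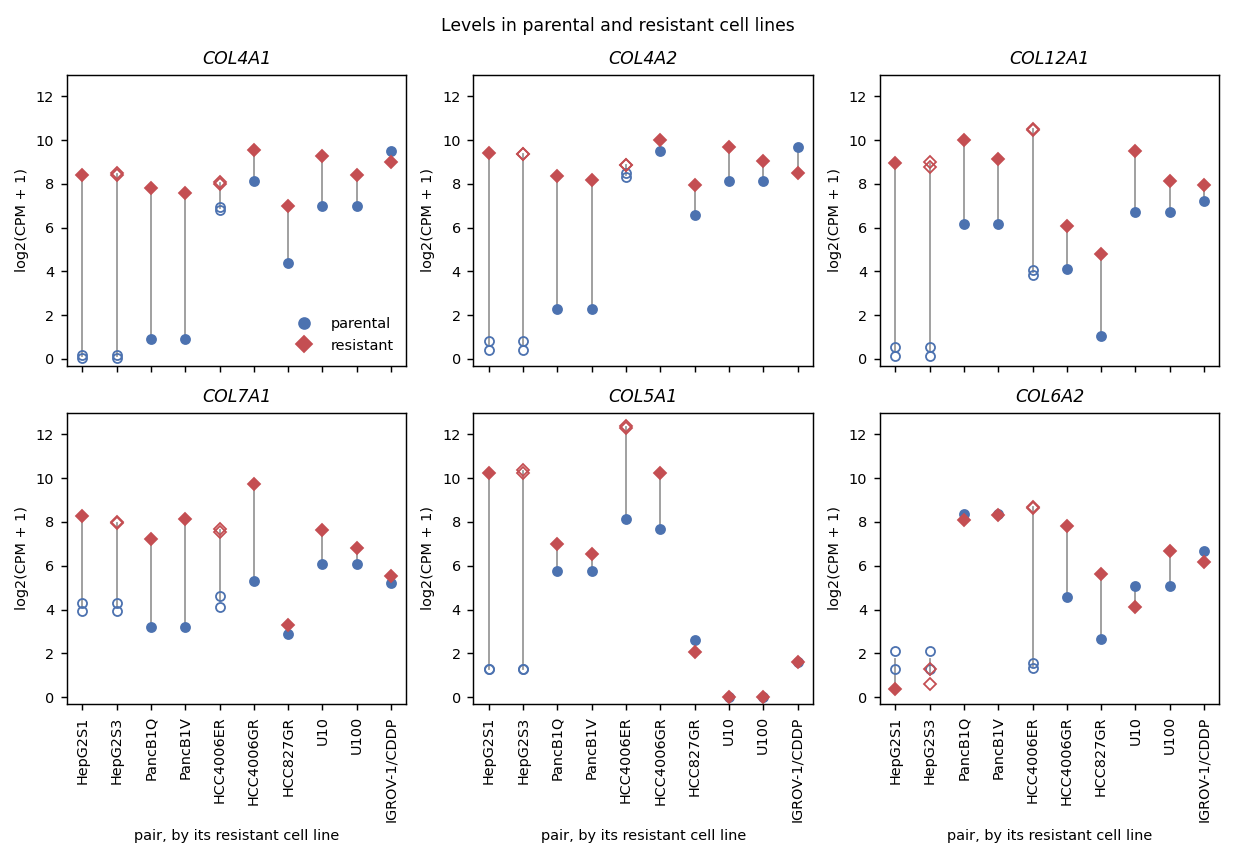
Levels of 6 chains as log2(CPM + 1) in the parental (blue circles) and resistant (red diamonds) cell line of each pair, with open symbols for each of 2 libraries and filled symbols for single libraries. COL12A1 is higher in the resistant cell line of every pair, by 0.73 in IGROV-1/CDDP up to 8.60 in HepG2S1.

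COL4A3 and COL4A4 belong to the specialised type IV network of the kidney glomerulus and a few other membranes. They went from 0.548 and 0.0689 CPM in HepG2 to 27.3 and 139 CPM in HepG2S1 and to 18.8 and 70.6 CPM in HepG2S3. The direction was opposite in HCC4006ER, where COL4A3 went from 3.94 to 0.508 CPM and COL4A4 from 12.47 to 2.45 CPM. HCC4006P2 had 33.1 CPM of COL4A3 and 53.1 CPM of COL4A4, against 13.7 and 37.0 CPM in HCC4006GR. UWB1.289 and its resistant cell lines kept COL4A3 between 13.8 and 20.6 CPM. COL4A5 and COL4A6, which can join in another type IV network, did not move as a pair in the HepG2 family. There COL4A5 went from 107 CPM to 255 CPM in HepG2S1 and 279 CPM in HepG2S3, while COL4A6 went from 40.8 CPM to 18.3 and 14.9 CPM. In the PancVB family both were lower, COL4A5 at 30.3 CPM in PancVB against 1.40 CPM in PancB1Q and 2.34 CPM in PancB1V, and COL4A6 at 3.96 CPM against 0.140 and 0.725 CPM. Over all pairs COL4A6 was 2-fold lower in 5 and higher in 1 (HCC4006GR).

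COL12A1, a FACIT gene, encodes the chain of type XII collagen, which associates with type I fibrils. It was at 0.284 CPM in HepG2, 497 CPM in HepG2S1 and 475 CPM in HepG2S3, and at 71.9 CPM in PancVB, 1013 CPM in PancB1Q and 559 CPM in PancB1V. Among lung cell lines it went from 14.6 to 1452 CPM in HCC4006ER, from 16.3 to 67.0 CPM in HCC4006GR and from 1.10 to 26.9 CPM in HCC827GR. Ovarian levels were 103 CPM in UWB1.289, 719 CPM in U10 and 277 CPM in U100, and 146 CPM in IGROV-1 against 244 CPM in IGROV-1/CDDP. COL12A1 was thus at least 2-fold higher in 9 of 10 pairs (7 of 8 without the HepG2 family and 6 of 7 without HCC4006ER as well). The log2 change of 0.73 in IGROV-1/CDDP was below that limit, with a counting interval of 0.65 to 0.81. The 250 bases before its RefSeq start (GRCh38.p14, chr6:75206054-75206303, minus strand) are shown because it was higher in as many pairs as COL4A1, more than any other chain, and the capitals mark the only one of the 3 searched motifs found, a GC box read on the opposite strand.

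COL12A1 upstream: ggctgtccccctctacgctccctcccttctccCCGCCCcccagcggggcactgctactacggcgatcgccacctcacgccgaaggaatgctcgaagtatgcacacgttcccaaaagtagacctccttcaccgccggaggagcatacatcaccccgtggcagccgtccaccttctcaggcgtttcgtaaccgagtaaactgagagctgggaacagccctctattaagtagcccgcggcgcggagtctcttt

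COL16A1, the chain of type XVI collagen, had its highest levels in the UWB1.289 family, at 55.8 CPM in UWB1.289, 750 CPM in U10 and 323 CPM in U100. Elsewhere it stayed between 0.0728 and 49.0 CPM, and it was 2-fold higher in 5 of 10 pairs and lower in none. COL9A2 and COL9A3 encode chains of type IX collagen, best known from cartilage. COL9A3 had the highest count of the chains in HepG2, at 291 CPM, and was at 7.41 CPM in HepG2S1 and 7.01 CPM in HepG2S3. COL9A2 went the same way, from 34.6 CPM to 1.62 and 3.21 CPM. In contrast, COL9A3 went from 0.691 CPM in PancVB to 10.9 CPM in PancB1Q and 9.14 CPM in PancB1V, and COL9A2 from 0.327 CPM in IGROV-1 to 7.08 CPM in IGROV-1/CDDP. COL22A1 was listed at 0 counts in 8 cell lines and reached 10.9 CPM in PancB1V (at least 78.7-fold above the floor of PancVB), 10.5 CPM in HCC4006GR and 19.7 CPM in U100. COL21A1 was highest in HCC4006P2 at 12.0 CPM, COL14A1 in U10 at 3.41 CPM and COL20A1 in IGROV-1/CDDP at 1.07 CPM. COL9A1 and COL19A1 stayed below 1 CPM in all 17 cell lines.

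Fibrillar chains ranged from undetected to the highest level measured for any chain. COL5A1 encodes a chain of type V collagen, a minor component that sets fibril diameter. Its level was 1.40 CPM in HepG2, 1208 CPM in HepG2S1 and 1280 CPM in HepG2S3, and 52.9 CPM in PancVB, 127 CPM in PancB1Q and 91.6 CPM in PancB1V. HCC4006P1 had 280 CPM in its usable library, against 5278 and 5011 CPM in the libraries of HCC4006ER, and HCC4006P2 had 205 CPM against 1203 CPM in HCC4006GR. HCC827P (5.13 CPM), HCC827GR (3.22 CPM), IGROV-1 (2.00 CPM) and IGROV-1/CDDP (2.06 CPM) were low, and UWB1.289, U10 and U100 had no COL5A1 count, which allows up to 0.258, 0.292 and 0.229 CPM. COL5A1 was therefore highest in the 4 resistant cell lines of the HepG2 and HCC4006 families and undetected in the UWB1.289 family at this depth. Its partner COL5A2 was never above 17.6 CPM (HCC4006P2) and was 2-fold higher in 1 pair (HCC4006ER) and lower in 1 (HCC4006GR, from 17.6 to 1.06 CPM). COL5A3, another type V chain, was 2-fold higher in all 5 pairs in which it reached 1 CPM, namely PancB1Q, PancB1V, HCC4006ER, HCC4006GR and IGROV-1/CDDP, with its highest level of 11.8 CPM in PancB1V. A chain that reaches 1 CPM only in the cell line where it is high has to differ, so this count is a description.

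Type I collagen, the major collagen of bone and skin, needs COL1A1 and COL1A2. COL1A1 was detected in all cell lines at a modest 1.61 CPM (HCC827GR) to 53.6 CPM (HCC4006GR), and was 2-fold higher in HCC4006ER, HCC4006GR and IGROV-1/CDDP and lower in HCC827GR. COL1A2 was by contrast below 1 CPM in 13 cell lines. It went from 3 counts (0.154 CPM) in HCC4006P1 replicate 2 to 1422 and 1243 CPM in the HCC4006ER libraries, a log2 change of 10.17 (counting interval 9.83 to 10.32). In HCC4006GR it reached 100.5 CPM from 4.70 CPM, and in U10 5.17 CPM from 0.344 CPM. Per kilobase, the level of COL1A1 was 0.0259 times that of COL1A2 in HCC4006ER, 0.457 times in HCC4006GR, 2.78 times in U10 and 4.41 times in HCC4006P2. COL3A1, a chain found with type I in soft tissue, was at 43.5 CPM in HCC4006ER against 0.0435 CPM in HCC4006P1, and at 9.58 CPM in HCC827GR against no count in HCC827P (at least 55.4-fold). COL11A1 passed 1 CPM in HCC4006ER alone, at 21.6 CPM. COL27A1 was a widespread fibrillar chain, at 263 CPM in HepG2, 30.9 CPM in HepG2S1 and 56.3 CPM in HepG2S3, and its lowest level was 1.38 CPM in HCC4006P1 against 43.8 CPM in HCC4006ER. COL2A1, the main cartilage chain, was found above 1 CPM in HepG2 only, at 7.27 CPM, COL11A2 stayed at 8.58 CPM or less and COL24A1 at 2.87 CPM or less.

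**Figure D3:**
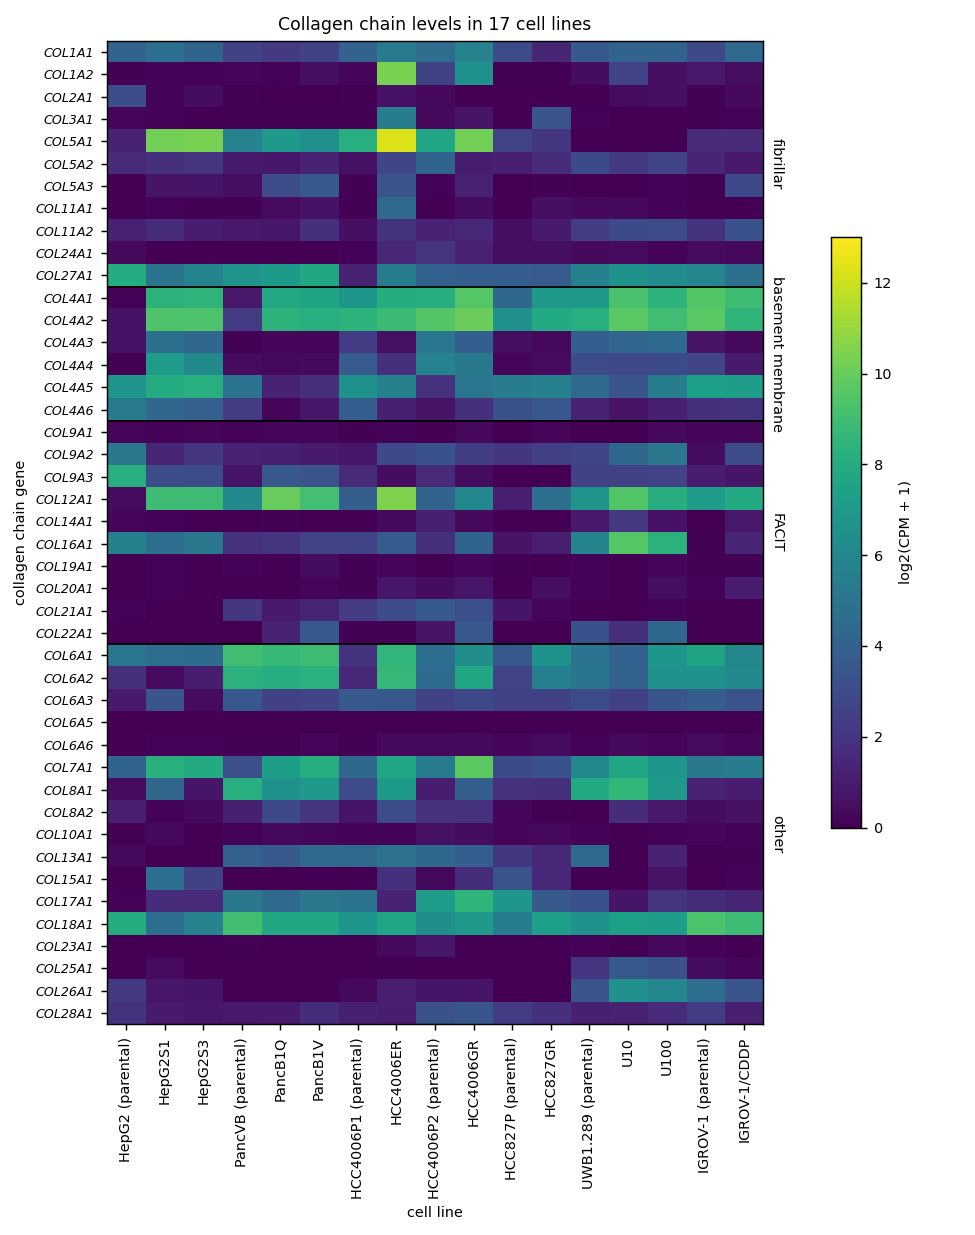
Level of each of the 44 chains as log2(CPM + 1) in the 17 cell lines, grouped by type, with cell lines of a family side by side. COL5A1 in HCC4006ER, at 5145 CPM, is the highest value, and rows such as COL6A5 or COL9A1 stay near 0 throughout.

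Among the remaining chains, COL7A1 was higher in the most pairs. It encodes type VII collagen, which forms the anchoring fibrils that tie epithelium to the underlying stroma. Its levels were 16.5 CPM in HepG2, 307 CPM in HepG2S1 and 249 CPM in HepG2S3, and 8.06 CPM in PancVB, 148 CPM in PancB1Q and 278 CPM in PancB1V. It went from 20.2 to 196 CPM in HCC4006ER and from 38.0 to 844 CPM in HCC4006GR, but only from 6.46 to 8.75 CPM in HCC827GR. It was at 67.3 CPM in UWB1.289, 197 CPM in U10 and 112 CPM in U100, and at 36.5 CPM in IGROV-1 against 45.3 CPM in IGROV-1/CDDP. COL7A1 was 2-fold higher in 7 of 10 pairs (5 of 8 without the HepG2 family and 4 of 7 without HCC4006ER as well) and lower in none.

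Type VI collagen forms beaded filaments from the chains COL6A1, COL6A2 and COL6A3. COL6A1 went from 2.77 to 377 CPM and COL6A2 from 1.70 to 404 CPM in HCC4006ER. Both were also 2-fold higher in HCC4006GR, HCC827GR and U100, and COL6A1 was lower in IGROV-1/CDDP (63.5 CPM against 190 CPM). In the PancVB family both were high throughout, COL6A1 between 413 and 521 CPM and COL6A2 between 276 and 332 CPM. COL6A3 ranged from 0.290 CPM in HepG2S3 to 14.2 CPM in IGROV-1, and its level per kilobase had a median of 0.0351 times that of COL6A1 over 15 cell lines. COL8A1, a short chain that forms networks, was high in PancVB (279 CPM), UWB1.289 (235 CPM) and U10 (395 CPM), lower in PancB1Q (97.7 CPM) and PancB1V (126 CPM), and rose from 7.18 to 136 CPM in HCC4006ER. COL8A2 did not exceed 7.08 CPM.

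COL17A1, a transmembrane chain of the hemidesmosome and thus an epithelial adhesion molecule, moved in both directions. It went from 31.5 to 1.45 CPM in HCC4006ER, from 115 to 11.5 CPM in HCC827GR and from 8.78 CPM in UWB1.289 to 0.683 CPM in U10 and 2.98 CPM in U100. It was higher in HCC4006GR, at 360 CPM against 143 CPM, and in HepG2S1 and HepG2S3, at 2.13 and 1.94 CPM against 0.0976 CPM. COL13A1, another transmembrane chain, was at 21.3 CPM in UWB1.289, 1.37 CPM in U100 and at no count in U10 (at least 72.9-fold lower). COL18A1, the source of endostatin, was the only chain at 10 CPM or more in all 17 cell lines, from 25.2 CPM in HepG2S1 to 627 CPM in IGROV-1. It was 2-fold lower in HepG2S1, HepG2S3, PancB1Q and PancB1V and higher in HCC827GR. COL15A1, its relative, reached 25.7 CPM in HepG2S1 and 9.23 CPM in HCC827P. COL26A1 reached 94.0 CPM in U10 and 64.3 CPM in U100 from 9.29 CPM in UWB1.289, and COL25A1 11.9 and 8.39 CPM from 3.01 CPM. COL28A1 did not exceed 9.99 CPM, and COL6A5, COL6A6, COL10A1 and COL23A1 stayed below 1 CPM throughout.

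How many chains changed at least 2-fold was counted in each pair, among chains with at least 1 CPM in either cell line. HepG2S1 had 12 of 27 measured chains higher and 8 lower, against 25.5% higher and 18.4% lower among all measured genes. HepG2S3 had 10 of 25 higher and 8 lower, against 27.3% and 17.7%. With library sizes scaled by TMM these splits became 11 higher and 11 lower in HepG2S1 and 9 higher and 10 lower in HepG2S3, since that scaling moved the median log2 change of all genes from 0.25 to -0.17 and from 0.28 to -0.11. In both resistant cell lines 5 of 6 basement membrane chains were among those higher. PancB1Q had 9 of 23 higher and 6 lower (all genes 6.1% and 9.41%), with 4 lower under TMM, and PancB1V had 8 of 26 higher and 4 lower (all genes 8.89% and 7.25%).

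HCC4006ER had the most, with 20 of 33 chains higher and 5 lower (all genes 13.5% and 10.1%), and each of its 10 measured fibrillar chains was higher, some of which reached 1 CPM in HCC4006ER alone and so had to differ. HCC4006GR had 16 of 32 higher and 3 lower (all genes 7.75% and 7.47%), or 6 lower with a pseudocount of 0.1 CPM. HCC827GR had 7 of 22 higher and 3 lower (all genes 10.6% and 7.67%). Among ovarian cell lines, U10 had 11 of 29 higher and 4 lower (all genes 6.27% and 5.11%) and U100 9 of 26 higher and 2 lower (all genes 6.43% and 1.73%). IGROV-1/CDDP had 5 of 25 higher and 6 lower (all genes 5.55% and 7.21%). Over all pairs, 107 of 268 measured chain changes were upward and 49 downward, with 85 and 33 of 216 without the HepG2 family and 65 and 28 of 183 without HCC4006ER as well. No share over all genes was computed for these pooled counts. Per pair, that share ran from 5.55% to 27.3% higher and from 1.73% to 18.4% lower. Pairs with a shared parental profile are pooled too, so the changes counted are not independent. The 2 parental profiles of HCC4006 also differed from each other, with 16 of 29 measured chains at least 2-fold higher in HCC4006P2 and 4 higher in HCC4006P1 (all genes 14.8% and 5.63%).

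**Figure D4:**
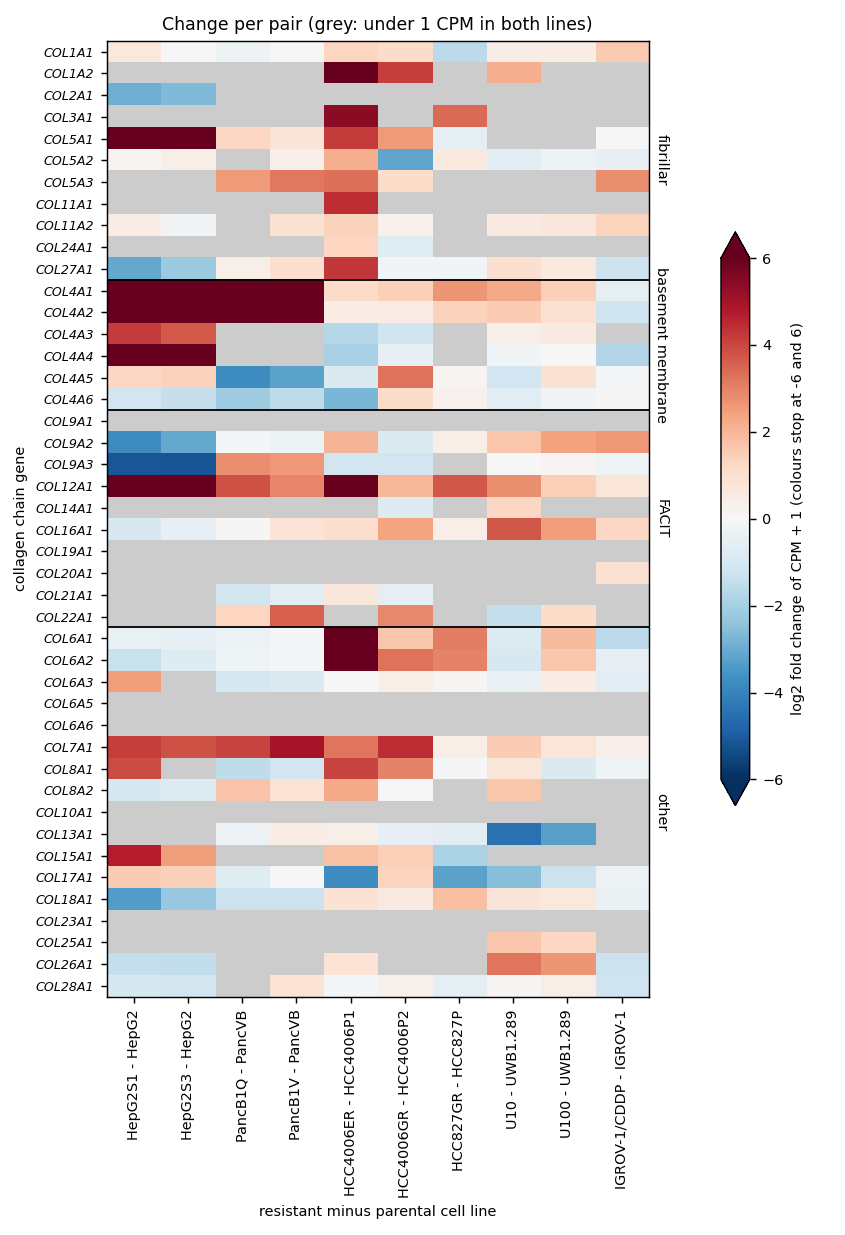
Log2 fold change of CPM + 1, resistant minus parental cell line, for each chain and pair, with chains under 1 CPM in both cell lines in grey and colours ending at -6 and 6. COL4A1, COL12A1 and COL7A1 are red or near white in all pairs but IGROV-1/CDDP, where COL4A1 is at -0.54.

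Replicates allowed a test in 2 pairs. For HepG2S3 against HepG2, edgeR tested 28 chains and called 11 higher and 11 lower, against 31.4% higher and 32.1% lower of all 16929 genes tested. Levels of COL4A1 were 0.0273 and 0.143 CPM in the HepG2 libraries and 367 and 342 CPM in those of HepG2S3. The edgeR log2 change was 11.67 ± 0.39 (SE, adjusted p = 3.9e-05). The HepG2 levels rest on 1 and 5 counts, so the size of this change depends on how such counts are handled. For COL5A1 the values were 1.39 and 1.41 CPM against 1215 and 1345 CPM (9.52 ± 0.20, adjusted p = 2.6e-05), and for COL12A1 0.109 and 0.459 CPM against 443 and 507 CPM (10.39 ± 0.48, adjusted p = 7.5e-05). These genes had some of the largest log2 changes among the chains. That their libraries did not overlap between the 2 groups follows from this and is only a description. The share of all genes without overlap was not computed. Also higher were COL4A2, COL4A3, COL4A4, COL4A5, COL5A3, COL7A1, COL15A1 and COL17A1, whose log2 changes lay between 1.07 and 9.88, although COL5A3 reached only 0.693 CPM and had no count in HepG2. COL9A3 fell most among the chains lower, from 292 and 291 CPM to 7.75 and 6.27 CPM (-5.69 ± 0.18, adjusted p = 3.8e-05). COL18A1 (-2.63 ± 0.15) and COL27A1 (-2.54 ± 0.27) fell too, as did COL2A1, COL4A6, COL6A1, COL6A3, COL8A2, COL9A2, COL26A1 and COL28A1. Calls of COL6A1 and COL26A1 were lost without either HepG2S3 library, and those of COL6A3 and COL8A2 without replicate 1. COL1A1, COL5A2, COL6A2, COL8A1, COL11A2 and COL16A1 did not pass. The libraries of HepG2 differed more than those of the other groups, for instance 329 and 197 CPM for COL27A1 and 66.7 and 31.4 CPM for COL16A1.

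For HCC4006ER against HCC4006P1, 19 of 27 chains tested were called higher and 4 lower, against 22.5% higher and 23.6% lower of all 13743 genes tested. The median log2 change was 2.45 over the chains tested and 0.02 over all genes tested. COL12A1 was at 15.7 and 13.4 CPM in HCC4006P1 and at 1473 and 1431 CPM in HCC4006ER (6.53 ± 0.15, adjusted p = 1e-05). COL6A2 was at 1.92 and 1.49 CPM against 406 and 403 CPM (7.77 ± 0.17, adjusted p = 1e-05), and COL6A1 at 3.70 and 1.85 CPM against 380 and 375 CPM (6.97 ± 0.29, adjusted p = 2.6e-05). Each of the 7 fibrillar chains tested was higher, with COL3A1 at 0.0870 CPM and no count against 51.6 and 35.4 CPM and COL11A1 at 0.0870 CPM and no count against 19.7 and 23.5 CPM. COL7A1 (3.17 ± 0.18), COL8A1 (4.14 ± 0.24), COL4A1 (1.07 ± 0.11), COL16A1 (1.09 ± 0.18) and COL18A1 (0.76 ± 0.12) were also higher. COL4A2 passed narrowly (0.36 ± 0.12, adjusted p = 0.0473) and lost its call with RLE size factors, without the filter on low counts, with genes missing from HCC4006P1 replicate 1 kept and without either HCC4006ER library. Lower were COL17A1 (-4.54 ± 0.22, adjusted p = 4.1e-05), COL4A3 (-3.04 ± 0.57), COL4A4 (-2.45 ± 0.24) and COL9A3 (-2.61 ± 0.51). COL6A3, COL13A1, COL21A1 and COL28A1 did not pass.

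**Figure D5:**
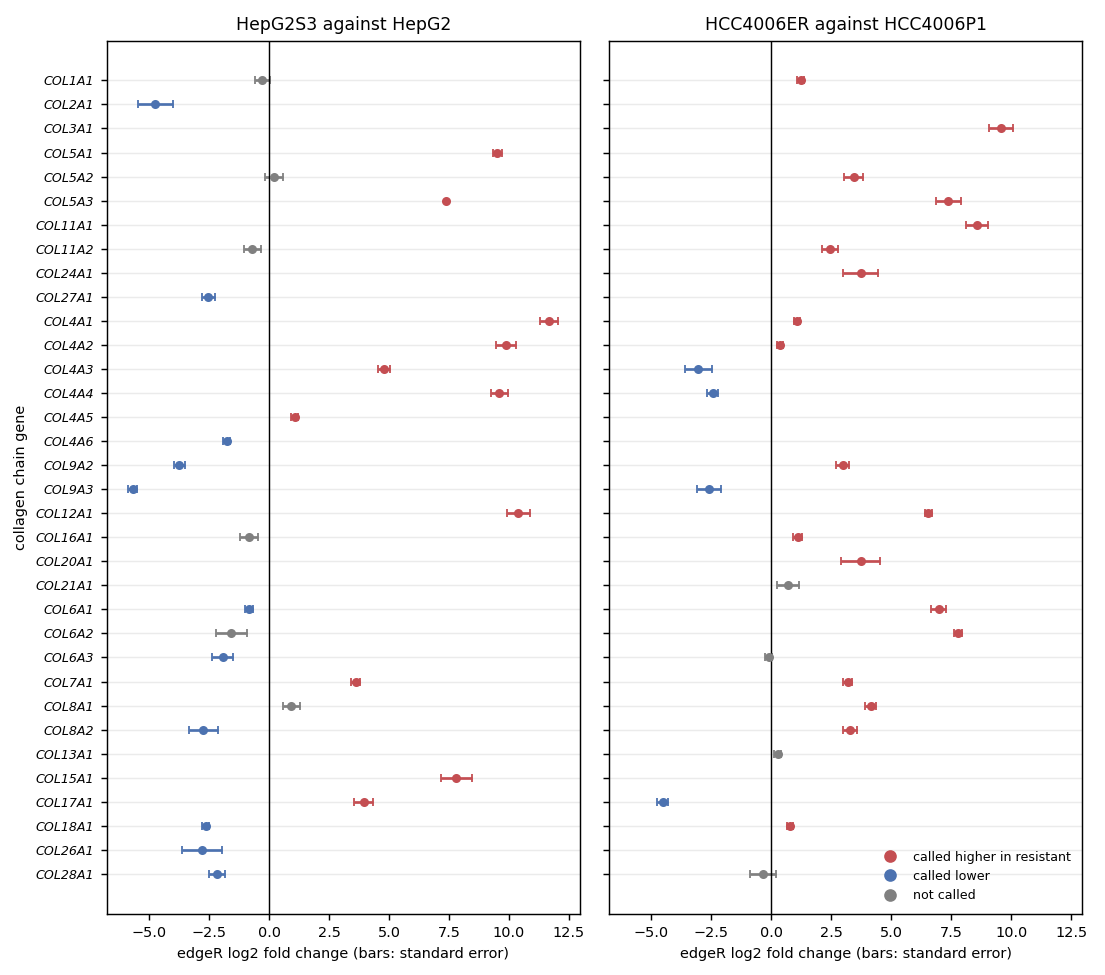
edgeR log2 fold change of each tested chain with its standard error in the 2 replicated pairs, red when called higher, blue when called lower and grey otherwise. Chains without a point were not tested in that pair, and COL5A3 in HepG2S3 has no bar because HepG2 had no count. The basement membrane chains COL4A3 and COL4A4 lie above 0 in HepG2S3 and below 0 in HCC4006ER.

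Whether a chain changed across all families was asked with counts summed into 7 resistant and 7 parental profiles. Each parental profile entered the fit as a block, with HCC4006P1 and HCC4006P2 as separate blocks although they carry 1 cell line identifier. edgeR called 0 of 38 chains tested and 0 of all 19829 genes (0%), while 8 chains and 920 genes (4.64%) had an unadjusted p under 0.05. DESeq2 called 90 genes higher (0.454%) and 23 lower (0.116%), among them the chains COL5A3, COL12A1 and COL7A1, all higher. For these, edgeR gave log2 changes of 5.95, 3.85 and 2.66 with adjusted p of 0.369, 0.97 and 0.962, and DESeq2 adjusted p of 6.94e-06, 0.00103 and 0.00317. The median log2 change was 0.86 over the chains tested and 0.02 over all genes. With HCC4006P1 and HCC4006P2 joined into 1 parental profile, edgeR again called 0 of 38 chains tested and 0 of all 20071 genes. In that fit, 6 chains and 837 of all genes had an unadjusted p under 0.05.

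Other genes of the pathway were described from lists of 24 collagen folding and processing genes and 7 collagen receptors. In HCC4006ER, edgeR called 15 of 21 folding and processing genes tested higher and 1 lower (PCOLCE2), against 22.5% and 23.6% of all genes. Among the former were SERPINH1 (the collagen chaperone HSP47), with a log2 change of 2.24 and a rise from 114 to 580 CPM, and ADAMTS2 (which trims the amino end of procollagen), with 97.2 CPM in HCC4006ER against 0.0730 CPM. In HepG2S3, 6 of 21 were higher and 6 lower, against 31.4% and 32.1% of all genes, with P4HB, a subunit of the collagen prolyl hydroxylase, at -1.14. Of the folding genes measured in IGROV-1/CDDP, 9 of 21 were at least 2-fold lower and 0 higher, against 7.21% and 5.55% of all genes. Among receptors, ITGA2 fell in both replicated pairs (-4.30 in HepG2S3 and -3.49 in HCC4006ER), and 1 of 6 was called higher and 3 lower in HepG2S3 (all genes 31.4% and 32.1%) and 3 of 7 higher and 2 lower in HCC4006ER (all genes 22.5% and 23.6%). ITGA11, an integrin chain that binds fibrillar collagen, rose by 6.44 on the log2 scale to 116 CPM in HCC4006ER. DDR2, a receptor for fibrillar collagen, rose in both pairs but to no more than 9.31 CPM. Over the 7 profiles, edgeR called 0 of 24 folding and processing genes, with 3 at an unadjusted p under 0.05 (all genes 0% and 4.64%). DESeq2 called 2 of them higher (BMP1 and ADAMTS3), against 0.454% of all genes. For the 7 receptors, edgeR and DESeq2 both called 0, with 0 at an unadjusted p under 0.05.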

How the data were processed

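RNA was sequenced in 21 libraries of 17 cell lines. The authors deposited raw read counts per gene, made with HTSeq after mapping to hg19 with TopHat and Bowtie, according to their processing notes. The labels name a stranded mRNA kit and the methods also a 3′ end kit, so per-kilobase levels rest on the assumption of full-length libraries. Versions and the strand setting are not given in the sources used here.

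Each count was divided by the gene total of its library to give CPM. In HCC4006P1 replicate 1, a run of 8696 genes from chromosome 7 on lacks counts (18.6% of the counts in replicate 2). Its CPM were scaled by 0.814 and these genes taken from replicate 2. Of 53515 genes, 45100 (84.3%) matched a GENCODE annotation of GRCh37. Log2 changes per pair used log2(CPM + 1), which understates changes of low genes. Intervals rest on 95% Wilson intervals of each level for counting error only, as PCR copies are not independent molecules. For a log2 change, the counting interval joins the opposite limits of the 2 levels and is wider than a 95% interval.

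The quasi-likelihood test of edgeR 4.0.16 (R 4.3.3) was used with TMM, filterByExpr and Benjamini-Hochberg adjusted p under 0.05 over all genes tested. The HCC4006ER test left out genes without counts or without an annotated position. Nothing in the labels says that replicates are separate cultures, so p-values measure the spread between these libraries. Titles give both HepG2 libraries 1 replicate number and likewise both HepG2S3 libraries, so the letters A and B were used. Replicates differed by more than counting noise (chi-square per degree of freedom 5.21 to 88.1). The tests were tested on simulated data. Alternatives used DESeq2 1.42.0, RLE factors, no filter, a replicate block, other pseudocounts and libraries left out. Counts over pairs without the HepG2 family and HCC4006ER were added after seeing the data.

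Named with full values were chains of at least 10 CPM in any cell line that changed 4-fold in 3 or more pairs or were called by edgeR in a comparison of resistant with parental cells (27 of 44). Others were given where their type needed an example, and PDX1, WT1, BMP1 and ADAMTS3 after their values were seen. Lists of folding and processing genes, receptors and markers of hepatocytes, fibroblasts, lung, ovary, pancreatic duct and epithelium served for context. The chains and lists were chosen with earlier results of these data known. Values were computed in Python 3.11.15 with pandas 2.3.3 and numpy 2.4.6, and plotted with matplotlib 3.10.9.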

Additional observations from a re-analysis of the deposited data

Results flagged for a closer look

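Whether a chain changed differently in the replicated pairs was tested with an edgeR interaction term, as the log2 change in HCC4006ER minus that in HepG2S3. Of 28 chains tested, 16 were higher and 6 lower, against 26.5% and 27% of all 15799 genes tested. These values are flagged because the difference between the families passed an adjusted p under 0.05. The differences above 0 were 12.68 for COL3A1, 9.31 for COL6A2, 8.01 for COL2A1, 7.78 for COL6A1, 7.64 for COL24A1, 6.69 for COL9A2, 5.98 for COL8A2, 5.97 for COL13A1, 3.37 for COL18A1, 3.20 for COL5A2, 3.18 for COL8A1, 3.12 for COL11A2, 3.05 for COL9A3, 1.91 for COL16A1, 1.80 for COL6A3 and 1.47 for COL1A1. Both type VI chains COL6A1 and COL6A2 are in this group. COL2A1, COL3A1, COL13A1 and COL24A1 are there although both libraries of at least 1 group had 3 counts of them or fewer, and their values depend on how such counts are handled. The differences below 0 were -12.06 for COL4A4, -10.62 for COL4A1, -9.54 for COL4A2, -8.50 for COL17A1, -7.85 for COL4A3 and -3.88 for COL12A1, so that each of the 4 basement membrane chains tested was among them. The HepG2 libraries held 1 and 5 counts of COL4A1, 4 and 1 of COL4A4 and 4 and 3 of COL17A1. The sizes of these differences therefore also depend on how low counts are handled. Of these 6 chains, COL4A1, COL4A2 and COL12A1 were called higher in both pairs and differed in size, whereas COL4A3, COL4A4 and COL17A1 were called in opposite directions. Among the chains with differences above 0, COL6A1, COL8A2, COL9A2 and COL18A1 were called lower in HepG2S3 and higher in HCC4006ER. COL7A1 did not pass (-0.46, adjusted p = 0.173).

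For chains without a test in the HCC4006ER pair, opposite directions in all pairings of libraries were found for COL27A1, COL26A1 and COL4A5. Their log2 changes in HCC4006ER minus those in HepG2S3 were 6.43, 2.33 and -2.23, and these differences were not tested.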

How the results depend on the processing

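Of 184 recounts of chains called under another setting, 181 stayed within 1.5 times the value reported. The exceptions were 2 chains lower in HCC4006ER when genes without counts in HCC4006P1 replicate 1 were kept, 3 chains higher over the 7 profiles with DESeq2 and 6 chains lower in HCC4006GR with a pseudocount of 0.1 CPM. The cause was not tested. Part of the 184 recounts could not change, so their number overstates how much was checked. Without a minimum CPM, a chain under 1 CPM in both cell lines still cannot reach 2-fold on CPM + 1. Scaling HCC4006P1 replicate 1 by its own total leaves pairs without HCC4006P1 as they were. In the fit of 7 profiles, edgeR called 0 of all genes under each of its settings. Over all pairs, 65 of 183 changes were upward and 28 downward without the HepG2 family and HCC4006ER, where fewer pairs were counted. No share over all genes was computed for this pooled count. No called value of a chain reversed its direction under any alternative. Leaving out each library in turn gave 10 to 12 chains higher and 8 to 15 lower in HepG2S3, 17 to 21 higher and 4 to 5 lower in HCC4006ER, and 16 to 18 higher and 6 to 7 lower for the interaction. Per pair, it gave 12 to 13 higher and 6 to 11 lower in HepG2S1, 10 higher and 6 to 10 lower in HepG2S3, and 16 to 21 higher and 4 to 5 lower in HCC4006ER, where chains without counts have no value without HCC4006P1 replicate 2. Leaving out each parental cell line in turn left 0 chains called over the 7 profiles.

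Same-numbered libraries of a resistant and a parental cell line carry the same letter, and whether they share a batch is not given in the labels. The main tests did not use this pairing. The correlation of their deviations from the group means was 0.0238 for HepG2 with HepG2S3 and 0.275 for HCC4006P1 with HCC4006ER, with 2 pairs of libraries each. With the replicate block, 11 chains were called higher and 12 lower in HepG2S3 (all genes 31.2% and 31.2%). In HCC4006ER the block gave 20 and 4 (all genes 28% and 28.2%, against 22.5% and 23.6% without it). For the interaction it gave 16 and 6 (all genes 26.5% and 26.7%). Without the parental cell line as a block, 0 chains were called over the 7 profiles. Depth limits levels under 0.305 CPM in the shallowest library, so that low chains cannot be called absent.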
